A study of Mus musculus with 2 samples.

Results

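The regions described here are Sox9 peaks of mouse rib chondrocytes that overlapped no Sox6 peak but had one beside them, with no more than 1000 bp between the nearest edges. They were chosen by overlap and distance in the 2 deposited peak lists, and 3336 of the 23615 Sox9 peaks on chromosomes 1 to 19 met it, which is 14.1% (95% exact binomial interval 13.7 to 14.6). Of the other Sox9 peaks, 18116 shared 1 bp or more with a Sox6 peak and 2163 lay more than 1000 bp from any. The 3336 peaks were 60.7% (59.4 to 62.0) of the Sox9 peaks that were not on Sox6. Both measures are therefore given as descriptions.

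The Sox6 list came from chromatin immunoprecipitation with sequencing (ChIP-seq) on primary rib chondrocytes of untreated wild-type ICR mice at postnatal day 1, and held 77750 peaks on chromosomes 1 to 19. A sample of input DNA from the same kind of cells had no antibody and was not analysed here. The Sox9 list is a new analysis by the authors of 2 older Sox9 ChIP-seq samples from the same cell type, and the sources used here give no strain, age or shearing for them. There was 1 list per factor and no replicate. Neither list carries reads or scores, so depth is unknown, no difference below was tested over samples, and intervals cover counting error only and treat peaks as independent, which neighbouring peaks are not. Antibody, animals and library cannot be told apart from the factor wherever the lists differ.

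SOX9 is the transcription factor on which cartilage formation depends, and it binds DNA through an HMG box that bends the double helix. SOX6 belongs to the SOXD group, carries a related HMG box and no known activation domain of its own, and together with SOX5 it works with SOX9 at enhancers of cartilage matrix genes. Enhancers of this kind often hold several SOX sites close together. A called peak marks a stretch of enriched fragments and not a single binding site.

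Most of the Sox9 peaks beside Sox6 were very close to it. The gap between the nearest edges had a median of 170 bp (exact interval of the median 159 to 180), with quartiles of 55 and 377 bp. It was at most 200 bp for 1834 peaks (55.0%) and at most 500 bp for 2814 peaks (84.4%), while 522 peaks had a gap above 500 bp. In 22 cases the peaks touched without sharing a base. Centre to centre, the median distance was 336.8 bp, with quartiles of 210.5 and 548 bp. The Sox6 peak lay at the lower coordinate in 1622 cases and at the higher one in 1714, so neither side of the genome axis was favoured by much.

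The gaps continued, without a break, from the overlapping pairs. There were 777 peaks with a gap under 50 bp, and 1695 Sox9 peaks just on the other side of the rule, whose largest overlap with Sox6 was 1 to 50 bp. Nearer to the edge the counts were 469 gaps under 25 bp and 681 overlaps of at most 25 bp. At the far end of the rule the numbers had levelled off, with 48 peaks in the last 100 bp inside the limit and 53 in the first 100 bp outside it. A Sox9 peak and its nearest Sox6 peak together spanned a median of 508 bp, and in 2043 pairs (61.2%) the span was no more than 600 bp, the upper fragment length that the labels give for the Sox6 chromatin. Whether shearing or the placing of peak edges sets the short gaps was not tested.

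**Figure D1:**
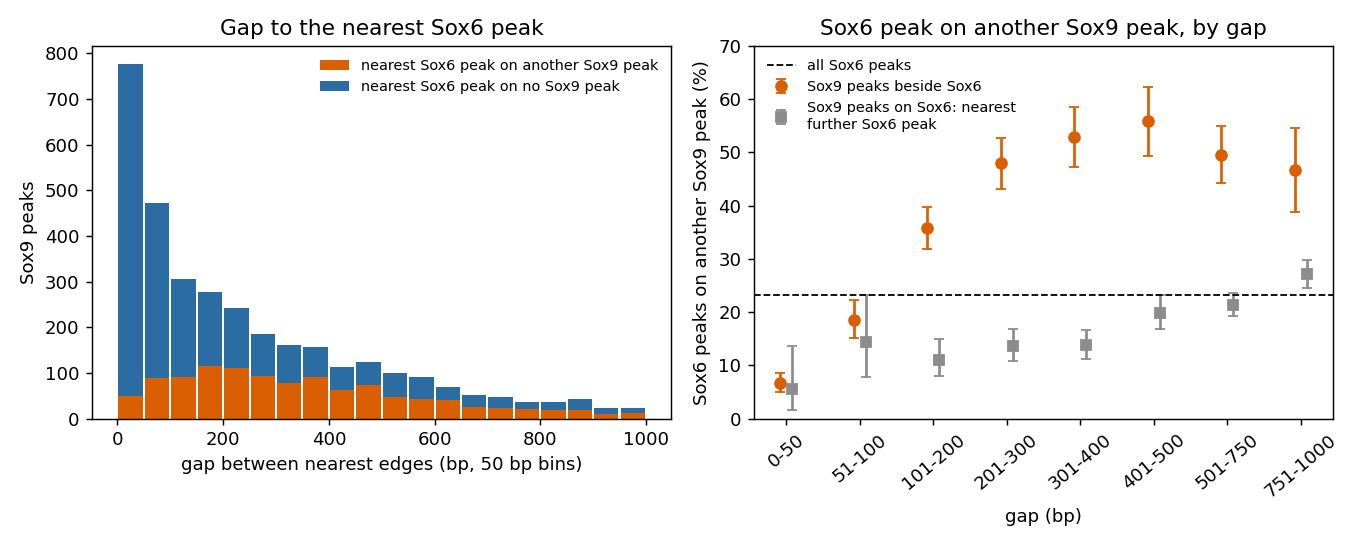
Left, number of Sox9 peaks beside Sox6 by the gap to the nearest Sox6 peak in bins of 50 bp, stacked by whether that Sox6 peak lies on another Sox9 peak (orange) or on none (blue). Right, percent of those Sox6 peaks on another Sox9 peak by gap (orange circles), the same for the nearest further Sox6 peak of Sox9 peaks that are on Sox6 (grey squares) and the 23.2% of all Sox6 peaks (dashed line), with 95% exact binomial intervals. Gaps pile up near 0, and the share on another Sox9 peak climbs from 6.61% at gaps up to 50 bp to 55.9% between 400 and 500 bp.

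The nearest Sox6 peak lay on another Sox9 peak for 1103 of the 3336 peaks, or 33.1% (31.5 to 34.7), and on no Sox9 peak for 2233. Of all Sox6 peaks on these chromosomes, 23.2% overlapped a Sox9 peak. The more common arrangement was therefore a Sox9 peak and a Sox6 peak side by side, with neither overlapping a peak of the other factor. With only the first 50% of the Sox9 list the share was 19.1%, against 12.8% of all Sox6 peaks. With the first 50% of the Sox6 list it was 38.0%, and 38.3% of all Sox6 peaks in that part were on Sox9.

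The share differed along the gap, which the rule itself used, and these values are a description. Of the 787 peaks with a gap of up to 50 bp, 52 (6.61%, 4.97 to 8.58) had their nearest Sox6 peak on another Sox9 peak. Between 50 and 100 bp it was 18.5%, between 100 and 200 bp 35.8%, and between 200 and 300 bp 47.9%. It was highest at 55.9% (49.4 to 62.4) between 400 and 500 bp, where 132 of 236 peaks had such a neighbour, and 46.6% (38.8 to 54.6) between 750 and 1000 bp. The second Sox9 peak (median width 176 bp) lay on a Sox6 neighbour, and all Sox6 neighbours had a median width of 136 bp. It touched or overlapped the first Sox9 peak in 35 of 1103 cases. Whether peak widths limit the share at the shortest gaps was not tested.

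For comparison the same was read for Sox9 peaks that were on Sox6, using the nearest further Sox6 peak that they did not overlap. Of these, 4917 (27.1%) had one within 1000 bp, at a median gap of 518 bp, and 962 of those Sox6 peaks (19.6%, 18.5 to 20.7) lay on another Sox9 peak. Up to 50 bp the share was 6.61% for the peaks beside Sox6 and 5.56% (1.53 to 13.6) for those on Sox6. Between 200 and 300 bp it was 47.9% (43.1 to 52.7) for the peaks beside Sox6, against 13.6% (10.8 to 16.8) for those on Sox6. The Sox6 peaks compared stood at different places of their list, with medians at 14.3% of the list for the neighbours of peaks beside Sox6 and at 59.2% for these further Sox6 peaks. At like places the order was the other way in the early part of the list: in the first 5%, 57.1% (53.4 to 60.8) of the neighbours and 84.3% (77.6 to 89.7) of the further Sox6 peaks were on another Sox9 peak, and between 20 and 40% of the list it was 20.5% of the neighbours and 28.6% (25.5 to 31.9) of the further Sox6 peaks. In the last 20% the values were 14.5% (9.58 to 20.6) for the neighbours and 4.00% (2.97 to 5.25) for the further Sox6 peaks. Gap was not held alike in these shares by place. Gaps of up to 50 bp were 787 of 3336 for the neighbours and 72 of 4917 for the further Sox6 peaks. Whether gap accounts for the order at like places was not tested.

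Where the nearest Sox6 peak was on another Sox9 peak, the site had the form of a Sox6 peak shared with 1 Sox9 peak and a second Sox9 peak at its side. Between the edges of both Sox9 peaks there was a median distance of 287 bp (quartiles 161 and 476 bp), and between their centres 481 bp. In 618 cases the shared Sox9 peak had its centre beyond the centre of the Sox6 peak, away from the Sox9 peak at the side. The peak at the side usually came later in the Sox9 list than the shared one: this held for 786 of 1103 pairs (71.3%, 68.5 to 73.9), with a median place at 66.5% of the list for the peak at the side and 37.3% for the shared one. The order of either list is not documented, so place is given as a description of the files. Overlap between the lists falls along both of them, so that place is not independent of sharing.

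The Sox6 peaks chosen in this way stood early in their list. There were 3147 different Sox6 neighbours, since 169 of them served 2 Sox9 peaks and 10 served 3. Their median place was at 14.9% of the Sox6 list (13.9 to 16.0), against 19.3% for Sox6 peaks on a Sox9 peak and 59.6% for the Sox6 peaks that were neither on Sox9 nor such a neighbour. Counted by pairs, 1328 of 3336 neighbours (39.8%) were among the first 10% of the list, which held 10.1% of all Sox6 peaks on these chromosomes. Of the 3925 Sox6 peaks in the first 5% of the list, 730 (18.6%) were the nearest Sox6 peak of a Sox9 peak beside them. Over the whole list it was 3147 of 77750. Overlap with Sox9 was also frequent in that first 5%, with 3082 of the 3925 on a Sox9 peak.

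Beside all Sox6 peaks at like places, the shares stood as follows. They rest on the overlaps that the rule used: a neighbour already has a Sox9 peak that does not overlap it, so being on Sox9 takes a second one, while any other Sox6 peak needs only 1, and all Sox6 peaks include the neighbours. In the first 5%, 417 of 730 neighbours (57.1%, 53.4 to 60.8) overlapped a Sox9 peak, against 78.5% (77.2 to 79.8) of all Sox6 peaks there. Between 10 and 20% of the list the values were 30.6% (27.1 to 34.3) for neighbours and 46.9% (45.8 to 48.1) for all Sox6 peaks. At the end of the list 14.5% (9.58 to 20.6) of neighbours and 5.57% (5.21 to 5.94) of all Sox6 peaks in the last 20% were on a Sox9 peak.

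**Figure D2:**
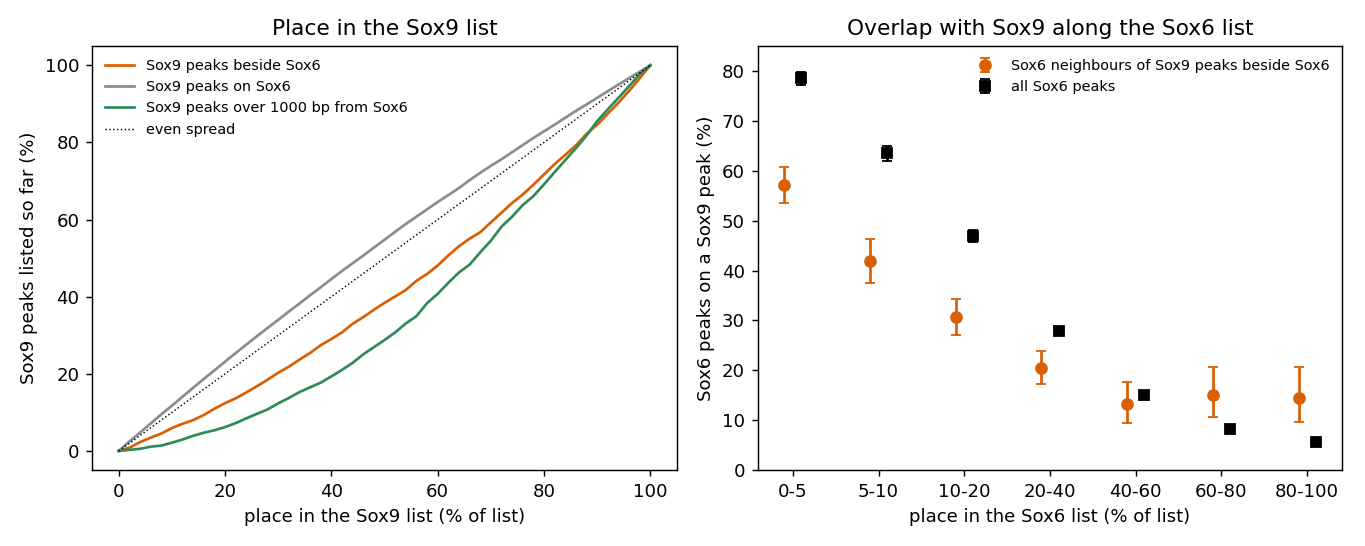
Left, cumulative percent of Sox9 peaks along the Sox9 list for peaks beside Sox6, on Sox6 and over 1000 bp from Sox6, with the diagonal for an even spread. Right, percent of Sox6 peaks on a Sox9 peak by place in the Sox6 list, for neighbours of Sox9 peaks beside Sox6 (orange) and for all Sox6 peaks (black), with 95% exact binomial intervals. Peaks beside Sox6 run below the diagonal, with a median place of 61.4%, and the neighbours lie below all Sox6 peaks over the first 40% of the list and above them in the last 40%.

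The gaps were shorter in the median where the Sox6 neighbour was on no Sox9 peak, with much overlap. When the Sox6 neighbour was on another Sox9 peak, the gap had a median of 300 bp (quartiles 170 and 486 bp), and when it was on none, 100 bp (33 and 281 bp). This is the relation of share and gap given above, read the other way. The rule itself used the gap, and whether peak widths limit the shortest gaps was not tested. Sox9 peak and neighbour together spanned a median of 663 bp where the neighbour was on another Sox9 peak and 437 bp where it was on none, and 41.4% of the pairs with a neighbour on another Sox9 peak and 71.0% of the others spanned no more than 600 bp. The Sox6 neighbours on another Sox9 peak had a median place at 7.38% of the Sox6 list (6.21 to 8.15), and those on none at 19.2% (18.2 to 20.3).

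The simplest arrangement was a lone pair. In 1303 cases (39.1% of the 3336) there was 1 Sox6 peak within 1000 bp, on no Sox9 peak, and no other Sox9 peak within 1000 bp. The gap in these lone pairs had a median of 97 bp (quartiles 33 and 268.5 bp), the centres were a median of 263.5 bp apart, and the pair spanned a median of 432 bp. Their Sox9 peaks stood at a median of 57.4% of the Sox9 list and their Sox6 peaks at 19.2% of the Sox6 list. Over all 3336 pairs the Sox6 peak had the earlier place in percent of its list in 2819 (84.5%), and 127 pairs had both peaks in the first 10% of their lists. Overlapping peaks leaned the same way. Sox6 peaks on Sox9 had a median place at 19.3% of their list, and Sox9 peaks on Sox6 one at 45.4% of theirs. The Sox6 list is the longer one, so equal percents of the lists are different numbers of peaks.

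Some peaks had neighbours on both sides, 1 near and 1 farther. For 610 Sox9 peaks (18.3%, 17.0 to 19.6) Sox6 peaks lay on both sides within 1000 bp, with medians of 129.5 bp for the nearer and 570.5 bp for the farther gap. The same share for other Sox9 peaks is not given here, so 18.3% is not read as particular to these peaks. In the reverse arrangement, 85 Sox6 peaks stood between 2 Sox9 peaks for both of which they were the nearest Sox6 peak, at median gaps of 90 and 320 bp. Of the 85, 59 were on no Sox9 peak, against 2106 of all 3147 Sox6 neighbours, with list place not held alike. These 85 had early places, with a median at 6.26% of the Sox6 list. Of all Sox6 neighbours, 417 of 730 in the first 5% of that list were on a Sox9 peak. Between 5 and 10% it was 203 of 485. In all, 2419 of the Sox9 peaks had 1 Sox6 peak within 1000 bp, 752 had 2, and 165 had 3 to 5. With the first 50% of the Sox6 list, the share with Sox6 on both sides was 7.81%.

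The Sox9 peaks beside Sox6 came later in the Sox9 list than those on Sox6. Their median place was at 61.4% of the list (60.1 to 62.8), against 45.4% (44.6 to 46.1) for peaks on Sox6, and 67.0% (65.3 to 68.7) for peaks over 1000 bp from Sox6. The first 5% of the list held 93 of the 3336 (2.79%), against 5.04% of all Sox9 peaks. Along the list the share of Sox9 peaks beside Sox6 grew. It was 8.35% (7.27 to 9.54) over the first 10% of the list and 21.8% (20.1 to 23.5) over the last 10%, while the share on Sox6 was 89.7% at the start and 64.9% at the end. The peaks over 1000 bp away made up 1.94% at the start and 13.3% at the end. Among the peaks beside Sox6, those with a gap of up to 50 bp had the earliest median place, 53.8%, and those with a gap between 200 and 300 bp the latest, 68.0%.

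They were also narrower. The median width was 165.5 bp (162 to 169), against 186 bp (185 to 187) for peaks on Sox6 and 183 bp (179 to 187) for peaks over 1000 bp away. The difference lay mainly among narrow peaks: 699 of the 3336 (21.0%) were under 100 bp wide, against 10.1% of all Sox9 peaks. Of the Sox9 peaks under 100 bp, 29.4% (27.6 to 31.3) were beside Sox6, whereas from 150 bp upwards the share stayed between 11.5% and 12.5%. A narrow peak has less room to overlap another, so width is not fully separate from the rule. The 699 narrow peaks had a median gap of 109 bp and the wider ones of 187 bp, and 27.04% of the narrow and 34.7% of the wider had their nearest Sox6 peak on another Sox9 peak.

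Many of these peaks had Sox9 company. Another Sox9 peak lay within 1000 bp of 1547 of the 3336, or 46.4% (44.7 to 48.1), against 14.3% (13.8 to 14.8) of the Sox9 peaks on Sox6 and 12.6% (11.3 to 14.1) of those over 1000 bp from Sox6. Over all Sox9 peaks the share was 18.7%. A Sox9 peak on Sox6 was present within 1000 bp for 1248 of the peaks, and another Sox9 peak beside Sox6 for 432. Of all Sox9 peaks, 76.7% were on Sox6 and 14.1% beside it, so company on Sox6 is also the more common kind in the list. The shares with company are not free of the rule. A Sox9 peak not on Sox6 but near a Sox9 peak on Sox6 can have that Sox6 peak within 1000 bp. It then counts as beside Sox6. Such a pair adds to both classes, which hold 3336 and 18116 peaks, so it weighs more in the share of the smaller class. How much of the contrast of 46.4% with 14.3% this accounts for was not tested. The share with any other Sox9 peak was 99.3% where the Sox6 neighbour was on another Sox9 peak, which follows nearly from the definition. It was 20.2% where the neighbour was on none, against the 14.3% of peaks on Sox6 and 12.6% of those over 1000 bp away. The 18.7% of all Sox9 peaks includes the peaks described here. With the first 50% of the Sox9 list, 27.5% of the peaks beside Sox6 had another Sox9 peak within 1000 bp, against 9.33% of all Sox9 peaks of that part.

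**Figure D3:**
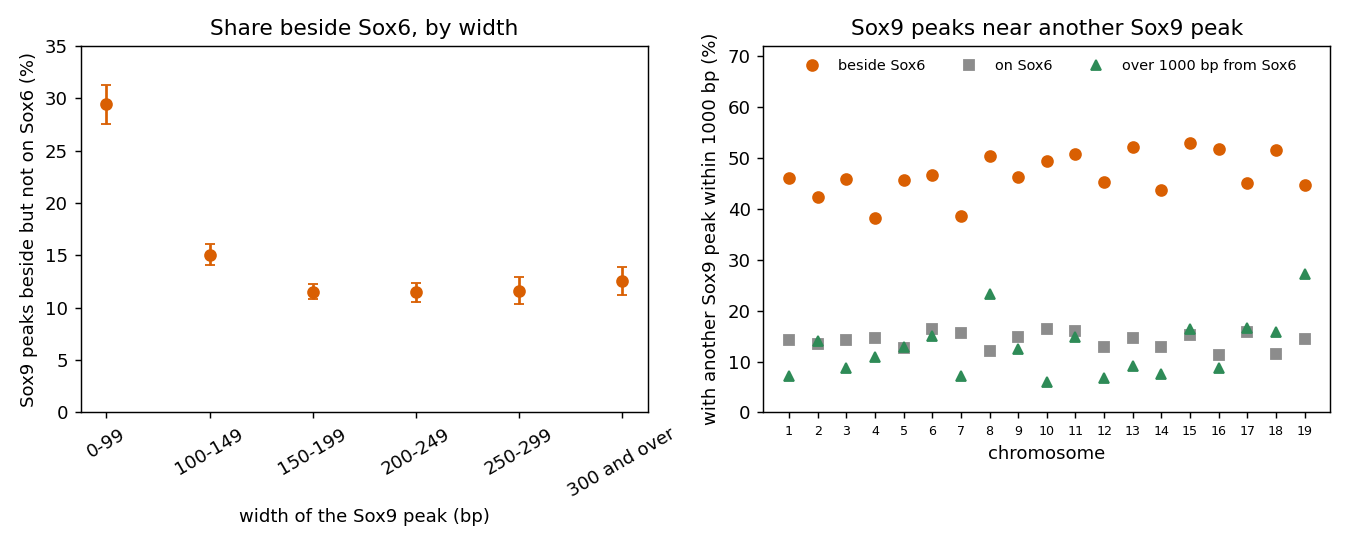
Left, percent of Sox9 peaks that are beside but not on Sox6 by the width of the Sox9 peak in bp, with 95% exact binomial intervals. Right, percent of Sox9 peaks with another Sox9 peak within 1000 bp on each of 19 chromosomes, for peaks beside Sox6 (orange circles), on Sox6 (grey squares) and over 1000 bp from Sox6 (green triangles). The share beside Sox6 is 29.4% under 100 bp, and the orange circles lie between 38.1 and 52.9%, above both other classes on every chromosome. The order of the classes on the right is not free of the rule that defines them.

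On a wider scale the difference was smaller. In runs of Sox9 peaks, chained while neighbouring centres were no more than 12.5 kb apart, 585 of the 3336 (17.5%, 16.3 to 18.9) were in runs of 5 or more peaks, against 11.05% of peaks on Sox6 and 12.0% of all Sox9 peaks. Some 993 (29.8%) were alone in their run, against 47.4% of peaks on Sox6 and 50.5% of those over 1000 bp away. These run shares are not free of the definition. The 1103 peaks whose Sox6 neighbour was on another Sox9 peak cannot be alone, so all 993 were among the other 2233. Beyond the limit of the rule, between 1000 and 10000 bp from the Sox9 peak, there was a mean of 2.38 further Sox6 peaks around peaks beside Sox6, 1.90 around peaks on Sox6 and 1.55 around peaks over 1000 bp away. No Sox6 peak lay in this range for 26.3% of the peaks beside Sox6, against 30.9% of those on Sox6 and 38.2% of those over 1000 bp away.

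The 10 peaks that came first in the Sox9 list included neighbours on another Sox9 peak and on none. Coordinates are on the mouse build mm9 and counted from 1, and no gene is named, since the annotation at hand is not on mm9. The earliest, place 11 of the list, was chr6:37348949-37349106, with a Sox6 peak at chr6:37349110-37349242 only 3 bp away and on no Sox9 peak. That Sox6 peak was itself early, at place 185 of its list, and the Sox9 peak had 3 Sox6 peaks within 1000 bp. The next, at place 44, was chr7:103001198-103001346. Its nearest Sox6 peak, chr7:103002097-103002198, was 750 bp away at place 26 of the Sox6 list, and lay inside another Sox9 peak, chr7:103002059-103002243, at place 84. Here a pair of early Sox9 peaks stood side by side with a single Sox6 peak under the later one.

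The third, chr15:50231974-50232155 at place 106, came much earlier than the Sox9 peak on its Sox6 neighbour. That Sox6 peak at chr15:50231787-50231901, 72 bp away, overlapped chr15:50231784-50231884, which came at place 4987. The next 2 were close pairs without further Sox9, chr10:76105257-76105500 with a gap of 78 bp and chr5:125444576-125444702 with a gap of 73 bp. Their Sox6 neighbours were at places 99 and 574. In both, early places in either list belonged to peaks less than 100 bp apart.

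They were followed by chr16:25058097-25058229, 24 bp from a Sox6 peak, and chr19:40484764-40484931, 98 bp from one, and both had another Sox9 peak beside Sox6 within 1000 bp. The ninth of the 10, chr9:107537794-107537910, had the latest neighbour of the 10, a Sox6 peak of 87 bp at place 29238, 145 bp away. The remaining 2, chr8:116930241-116930393 and chr17:45733649-45733825, stood 530 and 617 bp from Sox6 peaks that lay within other Sox9 peaks at places 592 and 2061. Over the 10 peaks the Sox6 neighbour was on another Sox9 peak in the cases with gaps of 72, 530, 617 and 750 bp, and on none in those with gaps of 3, 24, 73, 78, 98 and 145 bp.

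**Figure D4:**
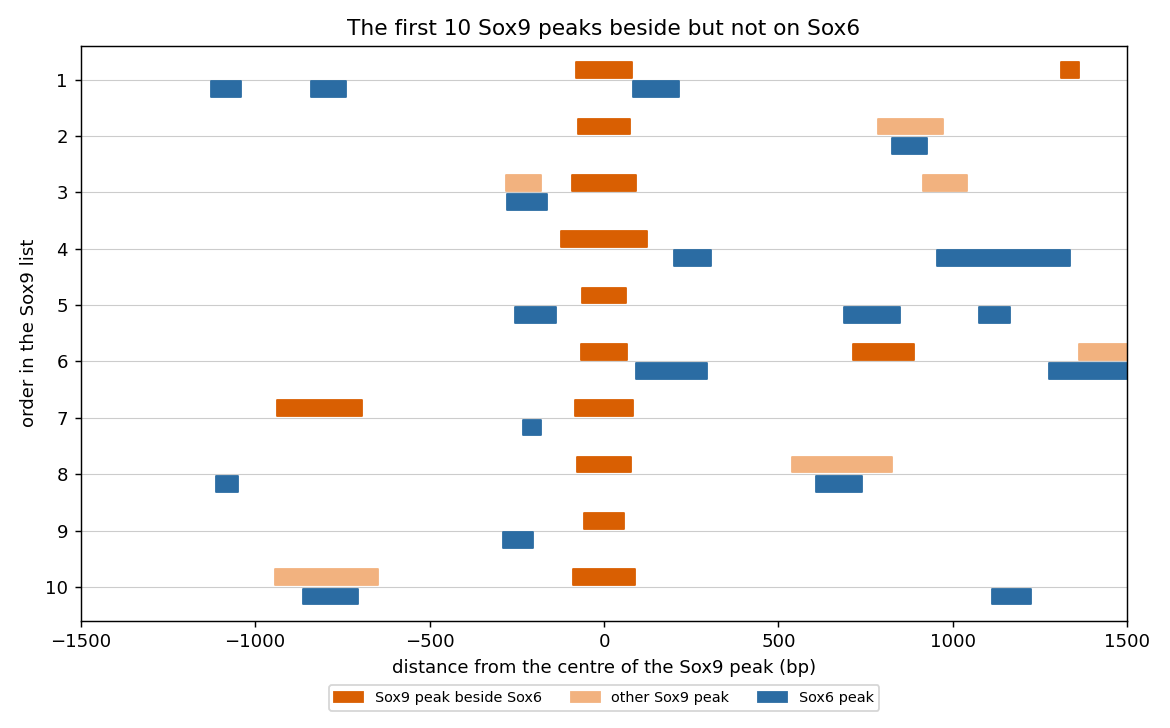
Called peaks within 1500 bp of the first 10 Sox9 peaks beside but not on Sox6, in list order from top to bottom, as distance in bp from the centre of that Sox9 peak. Orange bars are Sox9 peaks beside Sox6, pale orange bars other Sox9 peaks and blue bars Sox6 peaks. The nearest blue bar starts 3 bp from the first peak and 750 bp from the second, where it lies under a pale bar.

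Seen from the other list, 5 peaks stood beside the earliest Sox6 peaks. The Sox6 peak at place 6, chr5:115939569-115939702, lay within a Sox9 peak at place 3060, and the Sox9 peak beside it, chr5:115940405-115940462, was 702 bp away at place 11281. The one at place 7, chr13:91600344-91600479, was on no Sox9 peak, and its nearest Sox9 peak among those described, chr13:91600705-91600896, was 225 bp away at place 12557. The one at place 10, chr5:118909008-118909146, was also on none, and had chr5:118909168-118909294, place 507, at 21 bp. These last 2 are among the first 10 Sox6 peaks of their list and would be counted as lacking Sox9 by overlap alone. The Sox6 peaks at places 11 and 14 were on Sox9 peaks, at places 553 and 295 of the Sox9 list, and the Sox9 peaks at their side were 214 and 576 bp away at places 3862 and 1861.

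At the limit of the rule the 5 peaks just inside had gaps of 999, 996, 996, 995 and 991 bp, and the Sox6 neighbour was on another Sox9 peak for the last 2 of them. The 5 Sox9 peaks just outside had gaps of 1004, 1008, 1009, 1012 and 1019 bp, and for 4 of them the Sox6 peak was on a Sox9 peak.

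The peaks beside Sox6 were spread over 2827 runs, and 2453 of these held only 1. In 91 runs there were 3 or more, with 317 of the peaks. The 5 runs with the most held 6 or 7 each. On chr1:71688453-71716045, 27.6 kb long, 7 of 13 Sox9 peaks were beside Sox6, with gaps of 37 to 568 bp, 5 were on Sox6 and 1 was farther away. That run held 16 Sox6 peaks, and 1 of the 7 had a Sox6 neighbour on another Sox9 peak. On chr8:109972410-110019599 it was 7 of 14 Sox9 peaks, and these came early in the Sox9 list, with a median at 8.95% against 85.5% in the chromosome 1 run.

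**Figure D5:**
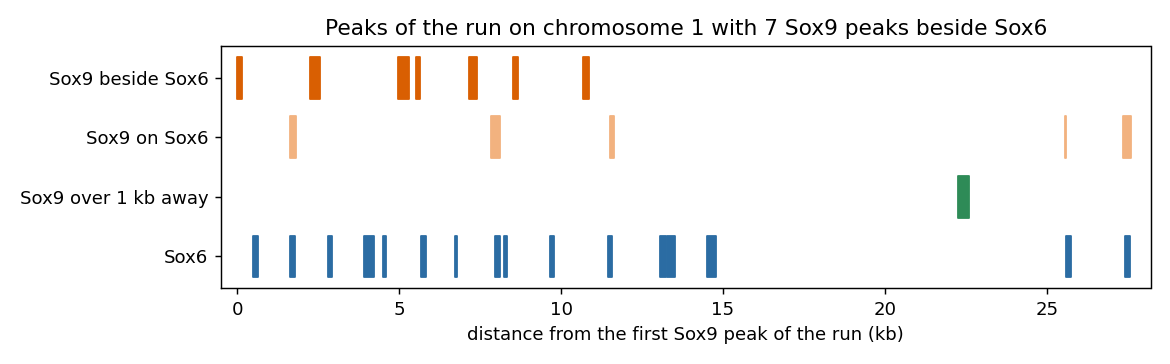
Called peaks of the run of Sox9 peaks on chromosome 1 with 7 peaks beside Sox6, as distance in kb from the first Sox9 peak of the run. Rows from top to bottom are Sox9 peaks beside Sox6, on Sox6 and over 1 kb from Sox6, and all Sox6 peaks. The 7 orange bars all lie in the first 11 kb, and none shares its position with a blue bar.

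The other 3 runs were long and rich in Sox9. On chr15:97804275-97885963, 7 of 32 Sox9 peaks were beside Sox6 and 5 of the 7 had a Sox6 neighbour on another Sox9 peak. On chr10:82557126-82646550 it was 6 of 21, with 1 such neighbour, and on chr19:5786466-5850375 it was 6 of 29, with none. In the chromosome 19 run 14 Sox9 peaks were over 1000 bp from Sox6, and in the chromosome 10 run there were 0. Runs of 20 or more Sox9 peaks held 19 of the 3336 peaks in all.

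The pattern was found on all chromosomes examined. Between 11.5% of Sox9 peaks on chromosome 18 and 16.2% on chromosome 11 were beside but not on Sox6, with numbers of 97 and 272 peaks. The median gap ran from 144.5 bp on chromosome 10 to 230.0 bp on chromosome 16. The share of Sox6 neighbours on another Sox9 peak was lowest on chromosome 7, at 25% (19.5 to 31.1), and highest on chromosome 11, at 39.3% (33.5 to 45.4). It was above the share of all Sox6 peaks on Sox9 on 19 of 19 chromosomes, on chromosome 7 by little, with 25% of neighbours and 24.6% of all Sox6 peaks. List place was not held alike there. In the first 5% of the Sox6 list the shares were 57.1% for neighbours and 78.5% for all Sox6 peaks, and in the last 20% 14.5% and 5.57%. Peaks beside Sox6 were narrower in the median and later in the list than those on Sox6 on all 19 chromosomes, and they were earlier than those over 1000 bp away on 16. Chromosomes share the same libraries and are not replicates.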

How the data were processed

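The lists, as deposited by the authors, are 3-column position files with no header or score. Per the labels' protocols, cells were fixed in 1% formaldehyde and sonicated to fragments of 100 to 600 bp. The submitters' processing notes name Bowtie and mm9 and no version. How peaks were called is not given in the sources used here. Per the series' design text, Sox9 peaks were called like Sox6 peaks. mm9 was taken for both lists.

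Gaps were measured between nearest edges, and each Sox9 peak was joined to the Sox6 peak with the smallest gap. Overlapping peaks of 1 list were kept as called. Place is the row number in percent of the whole list. Shares carry Clopper-Pearson and medians order-statistic intervals, both at 95% (Python 3.11.15, numpy 2.4.6, pandas 2.3.3, scipy 1.17.1). The code was tested on simulated lists. Named regions were the first 10 of these peaks in the Sox9 list, the 5 with the earliest Sox6 neighbours, the 5 on either side of the limit and the 5 runs with the most of them. The regions, lists and rules were chosen with earlier results of these data known. Genes, sequences and motifs were not analysed here, because the tables used here are on GRCm38.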

Additional observations from a re-analysis of the deposited data

Results flagged for a closer look

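Chromosome X was outside the comparisons. It held 245 Sox9 peaks, of which 36 (14.7%) were beside but not on Sox6, against 14.1% on chromosomes 1 to 19, and for 10 of the 36 the Sox6 neighbour was on another Sox9 peak. Their median gap was 85.5 bp. The 5 Sox9 peaks on chromosome Y included 0 of this kind.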

How the results depend on the processing

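Of 72 values recomputed under the 12 alternatives, 47 stayed within the counting interval of the reported value (counts of peaks: within 1.5 times) and 25 moved. None of the 7 values moved with the limit set between centres, touching peaks merged, X and Y added, or runs of 20 or more Sox9 peaks left out. The median width moved under none. With a limit of 500 bp the median gap was 122 bp, the share of Sox6 neighbours on another Sox9 peak 30.2%, the share with other Sox9 peaks near 42.8% and that with Sox6 on both sides 20.0%. With 2000 bp the gap was 207 bp and the last 2 shares 44.4% and 16.4%. With overlap counted only from 50% of the shorter peak, 5370 peaks qualified, with a median gap of 37 bp, neighbours on another Sox9 peak in 23.0%, other Sox9 near in 36.0% and a median place of 58.6%. In that setting a smaller overlap with the nearest Sox6 peak entered the median as a gap of 0 bp. With the first 50% of the Sox6 list the gap was 207 bp and the 3 shares 38.0%, 49.3% and 7.81%, where 38.3% of all Sox6 peaks in that part were on Sox9, so neighbours were no longer above them. With the first 50% of the Sox9 list 1281 peaks remained, as fewer were read, with a gap of 147 bp, neighbours on another Sox9 peak in 19.1%, other Sox9 near in 27.5% and a median place of 28.6%. Keeping 1 Sox9 peak per Sox6 neighbour gave a gap of 157 bp and other Sox9 near in 43.3%. Counting any Sox6 peak within 1000 bp gave 37.5% on another Sox9 peak, and asking for 50% of the shorter peak there gave 29.3%. Some shifts follow from the setting itself. A limit of 500 or 2000 bp cuts or extends the gaps that are read. Peaks of the first 50% of the Sox9 list cannot have a median place beyond 50%. The cause of the other shifts was not tested. Motif counts were not run. No paired analysis was possible because there is 1 list per factor. Without scores, depth sets a limit that cannot be stated.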
